A study of Mus musculus with 5 samples.

Results

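The genes Lcn5, Lcn8, Lcn9, Lcn12, Rnase9, Rnase10, Crisp1, Adam7, Gpx5 and Cst11, which are known for their expression in the mouse epididymis, were followed for their DNA methylation in sperm. They were chosen by name as genes whose proteins the epididymis secretes or hands to sperm, and they are 10 of 34614 protein-coding and lncRNA genes of the RefSeq table. The assay was whole-genome bisulfite sequencing of DNA from C57BL/6 sperm, which had swum out of the cauda, the last segment of the epididymis, where they are stored. The libraries comprised 2 of mice 18 months old (old replicates 1 and 2) and 3 of mice 2 months old (young replicates 1 to 3), with no other treatment or genotype in the labels. Whether the libraries are separate animals is not in the labels, and p-values therefore cover no more than the spread from library to library, which may be technical. The total number of reads at CpGs was 90716510 and 90640296 in old sperm, against 84117315, 67774094 and 97769462 in young sperm, with a median of 7 reads per CpG in each library. A gene was measured over its annotated span with 2000 bp on either side, as the percent of reads that carried a methylated C, summed over all CpGs with at least 5 reads in that library.

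The epididymis is a single coiled duct whose epithelium secretes proteins in a sequence of segments, and sperm acquire motility and the ability to fertilise as they pass through it. Many of these proteins are made under androgen control and bind the sperm surface. Sperm themselves are transcriptionally silent, so methylation at such genes in sperm is a record of germ cell DNA and is not a measure of the genes' use in the epididymis. In mature sperm most of the genome is highly methylated, with the exception of CpG-rich promoters. A level between fully methylated and unmethylated in bulk DNA cannot be told apart as a mixture of cells, of alleles or of states.

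The starts of these genes were poor in CpGs. RefSeq promoter sequences of the GRCm38.p6 build (250 bases before to 50 after each start) were matched for 8 of the 10 genes, and were given as 9 sequences since Rnase10 has 2. They held a median of 3 CpGs, against a median of 7 in 32851 promoters of 27025 genes. All 9 held 4 or fewer, as did 38.04% of all promoters, and their median GC content was 48.7%, against 52.7%. The sequences of 4 genes are printed from 5′ to 3′ on the strand of the gene, with every CpG in capitals, to show how few places a reading could come from. Gpx5 (chr13:21292637-21292936, minus strand) and Rnase9 (chr14:51041818-51042117, minus strand) had enough reads around the start for the test given further on. Crisp1 (chr17:40319158-40319457, minus strand) was the most methylated gene, and Lcn5 (chr2:25657702-25658001, plus strand) has no CpG in this stretch.
Gpx5: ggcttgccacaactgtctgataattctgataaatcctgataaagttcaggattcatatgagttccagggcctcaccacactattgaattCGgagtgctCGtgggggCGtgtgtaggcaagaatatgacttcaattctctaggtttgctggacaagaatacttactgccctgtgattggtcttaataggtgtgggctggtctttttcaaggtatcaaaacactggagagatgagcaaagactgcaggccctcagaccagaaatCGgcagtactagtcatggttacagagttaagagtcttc
Rnase9: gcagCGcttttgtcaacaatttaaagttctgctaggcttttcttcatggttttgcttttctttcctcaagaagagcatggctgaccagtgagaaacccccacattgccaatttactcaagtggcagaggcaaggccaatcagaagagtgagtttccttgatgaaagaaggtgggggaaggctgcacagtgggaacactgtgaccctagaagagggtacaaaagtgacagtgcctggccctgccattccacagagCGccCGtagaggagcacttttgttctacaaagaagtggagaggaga
Crisp1: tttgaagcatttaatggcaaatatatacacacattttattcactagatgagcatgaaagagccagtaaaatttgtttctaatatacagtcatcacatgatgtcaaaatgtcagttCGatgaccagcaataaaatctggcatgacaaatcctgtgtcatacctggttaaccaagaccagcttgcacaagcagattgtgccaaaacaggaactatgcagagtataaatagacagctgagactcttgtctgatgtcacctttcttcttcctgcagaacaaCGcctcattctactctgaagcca
Lcn5: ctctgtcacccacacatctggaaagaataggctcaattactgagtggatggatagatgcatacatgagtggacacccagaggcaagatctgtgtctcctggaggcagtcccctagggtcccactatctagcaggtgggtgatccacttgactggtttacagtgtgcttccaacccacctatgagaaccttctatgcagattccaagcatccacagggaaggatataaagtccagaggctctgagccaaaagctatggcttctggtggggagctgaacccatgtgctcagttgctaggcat
The letters TATAAA, searched on both strands, were present in 2 of the 8 genes' promoters (Lcn5 and Crisp1), and in 13.6% of all promoters. The letters AGAACA, one arm of the element bound by androgen and glucocorticoid receptors, were present on either strand in 5 of the 8 genes (Lcn12, Lcn9, Rnase10, Rnase9 and Crisp1), and in 18.97% of all promoters. These are matches of letters only.

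All 10 genes were highly methylated in sperm at both ages, and none of the 7 that could be tested was called different between ages. Over all libraries together the level ran between 78.5% of reads at Gpx5 and 94.5% at Crisp1, which placed them between the 22.1 and 90.0 percentiles of the genes tested. All but Crisp1 lay below the middle of the genes tested, at the 47.8 percentile (Rnase9) or lower. Of the 10 genes, 7 (all but Lcn8, Lcn9 and Lcn12) had at least 3 CpGs and 20 reads in every library and entered the test, with 31351 genes in all. A quasi-binomial model with limma's moderated dispersion and Benjamini-Hochberg adjustment called 0 of these 7 at 10 points or more with an adjusted p under 0.05, and 0% of all genes. The smallest adjusted p of any gene was 0.999975, while 1191 genes (3.80%) and none of the 7 had an unadjusted p under 0.05. With limma on log odds, 0 genes were called and 1148 had an unadjusted p under 0.05. Mean levels were higher in old sperm for 6 of the 7 genes, as for 48.1% of all genes tested. The median difference of old minus young was 3.67 points for the 7 genes and -0.0934 points for all genes. In each of the 10 genes the old and young libraries overlapped, while over all genes tested both old libraries lay above the 3 young ones in 6.92% and below them in 8.71%. The median SD of the young libraries was 5.11 points for the 7 genes and 2.84 points for all genes.

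**Figure D1:**
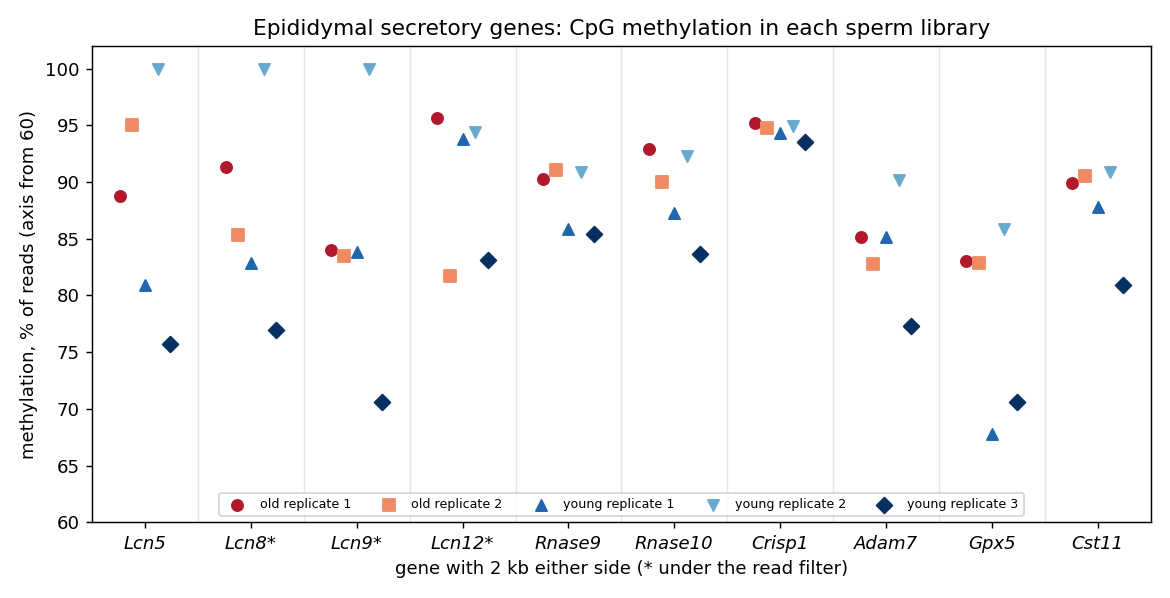
Methylation of each gene with 2 kb on either side, as the percent of reads (vertical axis, which begins at 60%), with 1 symbol per library and old libraries left of young ones. Young replicate 3 is the lowest symbol for 8 of the 10 genes, and the old and young symbols overlap for every gene.

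The lipocalins are small secreted carriers of hydrophobic molecules, and Lcn5 and Lcn8 lie side by side on chromosome 2 in a cluster of epididymal lipocalin genes. Lcn5 (chr2:25657932-25662230), which encodes a retinoic acid-binding protein of the epididymis, had 88.7% and 95% in old sperm, against 81.0%, 100% and 75.7% in young sperm. Both old values lay between the extremes of the young ones, and young replicate 2 rested on 24 reads at 3 CpGs. These CpGs, at chr2:25664172-25664183, lie in the flank past the end of Lcn5, so that library had no reading within the gene. The group means were 91.9% ± 4.43 (SD, n = 2) in old and 85.5% ± 12.8 (SD, n = 3) in young libraries, with an unadjusted p of 0.191. Lcn8 (chr2:25653118-25656217) had 91.3% and 85.3% in old sperm, against 82.9%, 100% and 76.9% in young sperm. Its span ends 1714 bases from that of Lcn5, so 6 CpGs count for both genes, and the value of 100% came from 5 reads at 1 CpG, for which the 95% Wilson interval is 56.6% to 100%. Lcn9 (chr2:25823088-25825546) had 84.0% and 83.5% in old sperm, against 83.9%, 100% and 70.6% in young sperm. The young libraries thus held both the highest and the lowest value of Lcn9, on 30 and 17 reads, and its range of 29.4 points over the libraries was the widest of the 10 genes. Lcn12 (chr2:25490845-25494061) had 95.7% and 81.7% in old sperm, against 93.8%, 94.4% and 83.1% in young sperm. Here the lowest value was that of old replicate 2. Lcn8, Lcn9 and Lcn12 had between 5 and 97 reads per library and no CpG covered in all 5 libraries, so they are described and were not tested. Such intervals cover counting error only.

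Rnase9 and Rnase10 belong to the ribonuclease A family and lie 27697 bases apart on chromosome 14, and Rnase10 is needed in the mouse for sperm to mature in the epididymis. Rnase9 (chr14:51038459-51041903) had 90.3% and 91.0% in old sperm, against 85.9%, 90.8% and 85.4% in young sperm. Young replicate 2 lay with the old libraries and the other two young ones lay lower, at means of 90.7% ± 0.525 (SD, n = 2) in old and 87.4% ± 3.01 (SD, n = 3) in young sperm and an unadjusted p of 0.331. Rnase10 (chr14:51007751-51010761) had 92.9% and 90.0% in old sperm, against 87.2%, 92.3% and 83.7% in young sperm. The same young library overlapped the old ones here, and the means of 91.5% ± 2.07 (SD, n = 2) in old and 87.7% ± 4.33 (SD, n = 3) in young sperm had an unadjusted p of 0.4005. Both differences turned with the CpGs that were counted. At CpGs covered in all 5 libraries, which numbered 5 for Rnase9, the difference of old minus young was -0.149 points, and with 1000 bp on either side in place of 2000 that of Rnase10 was -1.79 points. Within the span of Rnase10 alone, with no flank, the difference was -33.2 points, where old replicate 1 had 40% on 5 reads at 1 CpG, so it could not be tested.

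Crisp1 and Adam7, whose proteins are found on the surface of sperm, were the most deeply read of the genes. Crisp1 (chr17:40293758-40319207), a cysteine-rich secretory protein that takes part in gamete fusion, had 95.2% and 94.7% in old sperm, against 94.3%, 94.96% and 93.6% in young sperm. Its levels spanned 1.64 points over the 5 libraries, the narrowest range of the 10 genes, on 754 to 1102 reads per library. A large part of these reads, 229 to 343 per library, came from 5 CpGs in the flank past the gene's end (chr17:40292001-40293000). The means of 94.97% ± 0.318 (SD, n = 2) in old and 94.3% ± 0.702 (SD, n = 3) in young sperm had an unadjusted p of 0.530. Adam7 (chr14:68497336-68533689), a membrane protein of the ADAM family that the epididymis passes to sperm, had 85.1% and 82.8% in old sperm, against 85.2%, 90.1% and 77.3% in young sperm. Both old values lay inside the young range, on 1269 to 1867 reads per library. The means were 84.0% ± 1.66 (SD, n = 2) in old and 84.2% ± 6.49 (SD, n = 3) in young sperm, with an unadjusted p of 0.857. The Adam7 difference of old minus young, -0.237 points, was 2.73 points without young replicate 2 and -3.70 points without young replicate 3.

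Gpx5 and Cst11 encode proteins released into the fluid of the duct. Gpx5 (chr13:21286429-21292727), a secreted glutathione peroxidase that protects stored sperm from peroxides, was the least methylated of the genes, with 83.0% and 82.9% in old sperm, against 67.8%, 85.9% and 70.6% in young sperm. Its means were 83.0% ± 0.118 (SD, n = 2) in old and 74.8% ± 9.73 (SD, n = 3) in young sperm. The difference of 8.20 points was the largest of the 7 epididymal genes tested here (unadjusted p = 0.183, quasi-binomial test). That difference was 0.864 points at the 6 CpGs covered in all libraries and -3.12 points at CpGs with 10 or more reads, and it was 13.8 points without young replicate 2. Cst11 (chr2:148768618-148771497), a member of the cystatins, a family best known for inhibitors of cysteine proteases, had 89.9% and 90.5% in old sperm, against 87.8%, 90.9% and 80.9% in young sperm. Its means were 90.2% ± 0.435 (SD, n = 2) in old and 86.5% ± 5.11 (SD, n = 3) in young sperm, with an unadjusted p of 0.325. Without young replicate 3 the Cst11 difference of 3.67 points was 0.853 points.

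The same libraries came lowest and highest across most of the genes. Young replicate 3 was the lowest library in 8 of the 10 genes and in 6 of the 7 tested, and it was lowest in 32.9% of all genes tested. Young replicate 2 was the highest in 6 of the 10 genes and in 4 of the 7 tested, as in 44.0% of all genes, and was lowest in none of the 10. Summed over the CpGs of all 10 genes, the level was 88.9% and 87.1% in old sperm, against 86.9%, 91.6% and 82.4% in young sperm, on 2742 to 4080 reads per library. The young libraries thus held both ends of this order, with the old libraries between them. Over all genes tested, the median level was 89.7% and 89.1% in old sperm, against 89.4%, 91.7% and 88.5% in young sperm, the same order of young libraries in a narrower span. Without young replicate 3 the median difference of the 7 genes was 1.39 points, and without young replicate 2 it was 5.84 points.

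The libraries did not cover the same CpGs. Young replicate 2 listed the fewest CpGs, 241 in the 10 genes, against 315 to 360 in the other libraries. When only CpGs covered in all 5 libraries were counted, 108 CpGs remained, 6 of the genes passed the filter, and young replicate 3 was lowest in 3 of the 6 and young replicate 1 in the other 3. Over all 25401 genes that passed in the same way, young replicate 3 was lowest in 42.7% and young replicate 1 in 14.5%. The median over the genes was then 89.2% and 89.1% in old sperm, against 85.3%, 91.7% and 86.3% in young sperm, and over the 7 genes with a shared CpG the median difference of old minus young was 1.07 points. At these CpGs Crisp1 had 96.1% and 95.6% in old sperm, against 94.4%, 95.4% and 94.5% in young sperm, with the nearest old and young values at 95.56% and 95.44%. Adam7 had 86.1% and 83.7% in old sperm, against 84.8%, 90.0% and 77.1% in young sperm, much as over all of its CpGs.

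By single CpGs, young replicate 2 was again the highest library and young replicate 3 the lowest. Of the CpGs of the 10 genes, 40.0% and 44.2% were read as methylated in every read in the old libraries, against 40.7%, 53.5% and 29.0% in the young ones. Over all listed CpGs that share was 54.8% and 55.2% in old sperm, against 56.6%, 58.4% and 49.3% in young sperm, so fewer CpGs of these genes were fully methylated in each library. CpGs with a level under 50% made up 2.54% and 2.78% of the genes' CpGs in old sperm, against 4.35%, 2.07% and 7.25% in young sperm. Over all CpGs the share was between 5.48% and 6.28% in the 5 libraries, and young replicate 3, which had the most such CpGs in these genes, had the fewest over all CpGs.

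**Figure D2:**
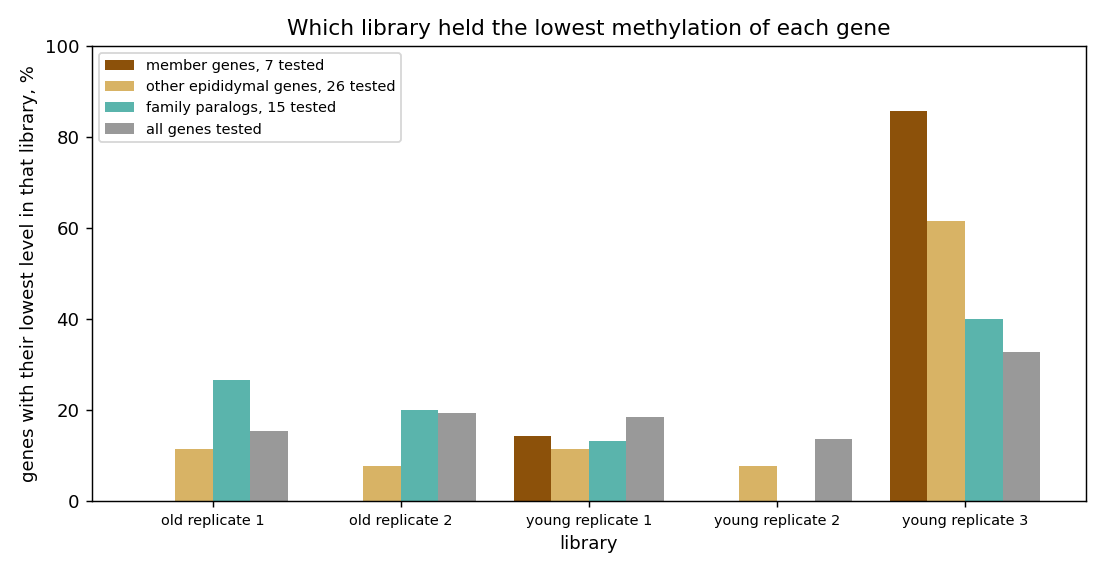
Percent of genes (vertical axis) whose lowest level was in the library named on the horizontal axis, old libraries first, for the genes studied here (7 tested), other epididymal genes (26 tested), paralogs (15 tested) and all genes tested. Young replicate 3 holds 6 of 7, 16 of 26 and 6 of 15 of the lists' lowest levels, and 32.9% over all genes.

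Markers of sperm and of other cells were read at gene starts, or at both ends where no start was given, and did not place the libraries in one order. The 4 germ cell genes together were at 78.2% and 80.1% in old sperm, against 75.4%, 68.7% and 85.6% in young sperm. Young replicate 3 was here the highest and young replicate 2 the lowest. Most of these reads were of Ddx4, at 84.9% over all libraries together. Dazl was at 9.35%, Sycp3 at 40.5% and Sycp1 at 45.3%. At 48 CpGs shared by all libraries, in 2 of the 4 genes, the level was 89.5% and 91.6% in old sperm, against 85.5%, 72.8% and 90.9% in young sperm, with old replicate 2 the highest. The 6 maternally imprinted genes were at 55.4% and 48.5% in old sperm, against 55.1%, 54.9% and 61.8% in young sperm. At 19 CpGs shared by all libraries, in 4 of the 6 genes, the level was 75.5% and 68.3% in old sperm, against 69.3%, 69.9% and 69.1% in young sperm. Which of these windows cover an imprint control region was not tested, and their levels differed widely. Over all libraries together the Peg3 start was at 36.3% on 964 reads and the Kcnq1ot1 start at 26.2% on 619. The starts of Mest and Snrpn were at 62.7% and 76.7%. Peg10 was at 26.05% at its lower-coordinate end, on 334 reads, and at 94.1% at the other. The ends of Impact were at 93.98% and 95.4%. The 4 leukocyte genes ranged between 74.9% and 80.6% in old and between 58.8% and 85.5% in young sperm, and the 4 epithelial genes between 33.5% and 50.5% in old and between 23.1% and 81.6% in young sperm, where young replicate 3 was highest in both. Each library covered only 1 to 3 of the epithelial genes, and these had no CpG shared by all libraries. The 23.1% of young replicate 2 came from 26 reads of 1 gene. The 4 spermatid genes ranged between 73.2% and 84.1% in old and between 64.0% and 97.0% in young sperm, from 2 to 4 covered genes. The 3 paternally methylated imprinted genes ranged between 42.7% and 58.5% in old and between 51.5% and 96.3% in young sperm, from 1 or 2 covered genes. The start of Rasgrf1, one of these, was at 0 in the 3 libraries that covered it, on 32 to 39 reads, which allows a level of up to 9.38%. The start of the germ cell gene Dazl was at 0 in 3 of 5 libraries, on 5 to 25 reads, which allows a level of 12% to 60%. The part of other cells or of library depth in the levels of the epididymal genes was not tested.

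Around the 8 known starts, levels were summed over the CpGs that were read, which came from few of the genes. Over all libraries together the level was 85.9% between 2000 and 1000 bp before the start, 82.1% between 1000 and 500 bp before it, 68.9% in the last 500 bp before it and 85.4% in the first 500 bp of the gene. All genes summed in the same windows were at 77.7%, 56.2%, 44.6% and 51.2%. Just before the start most of the reads came from Gpx5, Rnase9 and Rnase10, while Lcn9 and Lcn12 had none and Lcn5 and Lcn8 had 5 each. The libraries also gave unequal shares, since young replicate 1 gave 99 of the 283 reads there and young replicate 2 gave 28. In the last 500 bp before the start the summed level was 67.7% and 74.7% in old sperm, against 60.6%, 89.3% and 65.2% in young sperm, on only 28 to 99 reads per library. In the first 500 bp of the genes it was 87.5% and 83.0% in old sperm, against 93.3%, 89.3% and 70% in young sperm, so young replicate 2 had the same 89.3% on both sides of the start. The libraries covered different CpGs there. Of Gpx5, old replicate 2 had 68.2% on 44 reads, against 50% on 38 reads in young replicate 1, and no other library covered that stretch. Rnase9 was covered in all 5 and had 65.4% and 82.4% in old sperm, against 45.8%, 80.0% and 72.0% in young sperm, on 15 to 26 reads each. The old and young values of Rnase9 overlapped, and Gpx5 had 1 library of each age.

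**Figure D3:**
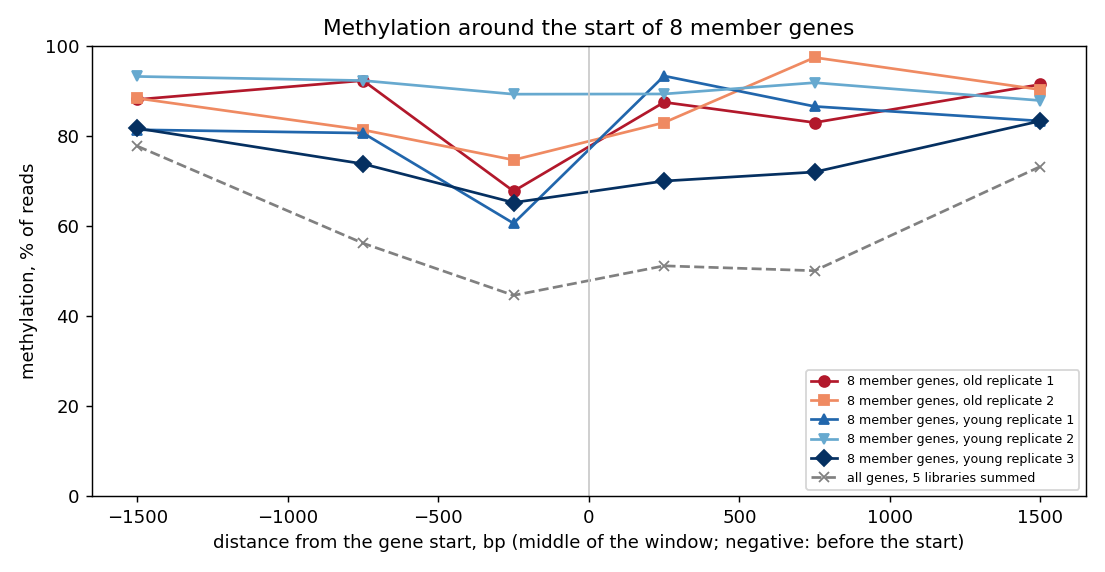
Methylation (vertical axis, percent of reads) of the 8 genes with a known start, summed in 6 windows by distance from the start (horizontal axis, bp), with 1 line per library and a dashed line for all genes. In the window just before the start young replicate 2 is at 89.3% and the other 4 libraries lie between 60.6% and 74.7%.

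Within the printed promoters the readings were few. In Gpx5 the 3 CpGs that stand close together in the sequence, 161, 152 and 144 bases before the start, were at 55.6%, 70% and 70% in old replicate 2, on 9 or 10 reads each, against 20%, 40% and 40% in young replicate 1, on 5 reads each. With 1 library of each age these values say nothing of the spread. The CpG of Crisp1 at position -135, counted from the start, was at 80% and 85.7% in old sperm, against 100% in young replicate 2 and 50% in young replicate 3, on 5 to 7 reads each. Lcn5 has no CpG in its promoter to read.

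Windows of 1000 bp on either side of a start, or of both ends where no start was given, were tested genome-wide. None of 11371 windows was called by the quasi-binomial test (0%), with a smallest adjusted p of 0.243 and 4.23% at an unadjusted p under 0.05. Of the 12 windows of these genes, 5 had enough reads. The Gpx5 start had 82.9% and 77.9% in old sperm, against 63.2%, 91.8% and 61.5% in young sperm (unadjusted p = 0.448). The Rnase9 start had 77.8% and 92.1% in old sperm, against 65.1%, 89.7% and 74.6% in young sperm. Both starts had young libraries on either side of an old one. At the higher-coordinate end of Cst11 the level was 89.7% and 92.5% in old sperm, against 78.7%, 91.8% and 71.0% in young sperm, a difference of 10.6 points with an unadjusted p of 0.124. Its lower-coordinate end had 90.1% and 91.2% in old sperm, against 96.6%, 92.5% and 86.0% in young sperm, so the ends of this gene did not share an order.

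The higher-coordinate end of Adam7 held 4 of the 15 CpGs in these genes that had 20 or more reads in every library. These 4 CpGs, within 54 bases at chr14:68533982-68534035 and just past the end of the span, had 48 to 69 reads each in every library, while the median at the genes' shared CpGs was 10.5 to 14.5. Deeper still were chr17:40292367 in the flank past the end of Crisp1, on 74 to 128 reads, and chr14:68499364 inside Adam7, on 75 to 113. Levels there ranged over 3.58 and 8.42 points across the libraries. The 4 CpGs past the Adam7 end were chosen after their values were seen. Their summed level was 85% and 66.0% in old sperm, against 67.6%, 84.1% and 54.9% in young sperm, on 207 to 257 reads per library. In each library the 4 CpGs lay close together, between 81.3% and 88.9% in old replicate 1 and between 52.2% and 57.4% in young replicate 3, and neighbouring CpGs may have been read on the same molecules. One library of each age was high, and the means of 75.5% ± 13.4 (SD, n = 2) in old and 68.9% ± 14.7 (SD, n = 3) in young sperm overlapped. Whether reads from similar copies elsewhere add to this place was not tested. The lowest shared CpG of the gene, at chr14:68528210, was at 16.7% and 0% in old sperm, against 28.6%, 30.0% and 0% in young sperm, on 5 to 10 reads each, where the counts of 0 allow a level of up to 50% and 60%.

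**Figure D4:**
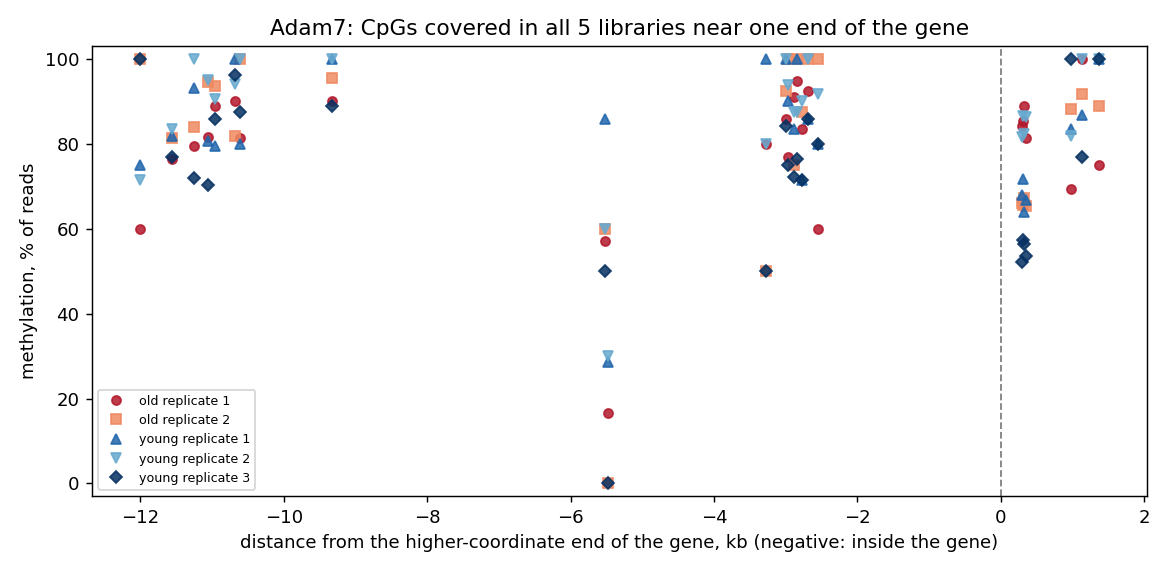
Methylation (vertical axis, percent of reads) of single CpGs covered in all 5 libraries by distance from the higher-coordinate end of Adam7 (horizontal axis, kb, negative inside the gene), with 1 symbol per library. Just right of the dashed line at 0, 4 CpGs show old replicate 1 and young replicate 2 above 80% and young replicate 3 between 52.2% and 57.4%.

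Tiles of 1000 bp gave no call either. The quasi-binomial test called 0 of 392712 tiles (0%), with a smallest adjusted p of 0.158 and 3.70% at an unadjusted p under 0.05. Tiles that overlapped a gene with its flanks of 2000 bp were taken whole, so some of their CpGs lie outside the gene or its flanks. Of these genes 23 such tiles were tested, 9 of them for Adam7 and 7 for Crisp1, and none had an unadjusted p under 0.05. Levels were higher in old sperm in 16 and lower in 7, as against 52.3% higher over all tiles. The median range over the 5 libraries was 12.5 points in these tiles and 7.09 points over all tiles. Young replicate 3 was lowest in 14 of the 23 and young replicate 2 highest in 13, as in 30.1% and 26.8% of all tiles. The smallest p of the genes' tiles was at the higher-coordinate end of Cst11 (chr2:148771001-148772000), with 88.9% and 92.5% in old sperm, against 75.5%, 91.8% and 71.0% in young sperm (unadjusted p = 0.0565). In Adam7 the smallest p belonged to a tile inside the gene (chr14:68523001-68524000), where old sperm had 78.7% and 88.9%, against 92.3%, 96.7% and 89.4% in young sperm (unadjusted p = 0.0640). The nearest old and young values in this tile were 88.9% on 27 reads and 89.4% on 47 reads. Of the tested tiles of Adam7 the least methylated (chr14:68534001-68535000) lay at the end described before, with 85.2% and 71.4% in old sperm, against 69.6%, 84.9% and 59.6% in young sperm. Lower still was a tile inside Adam7 that missed the read filter (chr14:68528001-68529000), with 26.3% and 22.2% in old sperm, against 52.6%, 37.1% and 23.5% in young sperm, on 17 to 35 reads per library. It was the least methylated tile of Adam7 in all, and holds the CpG at 68528210 described before. The tile of Gpx5 that was tested (chr13:21293001-21294000) had 68.3% and 81.4% in old sperm, against 59.1%, 91.4% and 50% in young sperm, with young libraries both above and below the old ones. The tested tiles of the other genes were more highly methylated, while tiles with fewer reads held lower values, among them 73.1% just before the Rnase9 start and 74.6% in Crisp1 over all libraries together. The tile of Lcn5 (chr2:25664001-25665000) had 85.7% and 98.4% in old sperm, against 89.1%, 100% and 71.2% in young sperm. That of Rnase9 (chr14:51037001-51038000) had 93.5% and 88.9% in old sperm, against 93.2%, 95.6% and 95.2% in young sperm. In the Rnase9 tile, beyond the end of the gene opposite its start, young replicate 3 was not the lowest library. The tile of Rnase10 (chr14:51005001-51006000) had 94.2% and 100% in old sperm, against 97.4%, 93.4% and 90.9% in young sperm. The tested tiles of Lcn5, Rnase10 and Gpx5 also lay outside the genes, those of Lcn5 and Rnase10 only partly within the flank of 2000 bp. In Crisp1 the least methylated of the 7 tested tiles (chr17:40308001-40309000) had 94.5% and 87.5% in old sperm, against 100%, 94.5% and 93.7% in young sperm. The tested Crisp1 tile with the smallest p (chr17:40292001-40293000), past the gene's end, had 96.4% and 96.9% in old sperm, against 94.0%, 97.4% and 95.3% in young sperm (unadjusted p = 0.3845), a narrow range on 229 to 343 reads.

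No other epididymal gene and no paralog of the lists was called. Of 29 further genes known from the epididymis, 26 were tested and 0 were called, with 16 higher and 10 lower in old sperm and a median difference of 0.146 points. Young replicate 3 was the lowest library in 16 of the 26, and their median level was 87.0% and 84.5% in old sperm, against 87.1%, 90.6% and 81.7% in young sperm. The 3 of the 26 with the largest differences were all lower in the mean of old sperm. Rnase12, a neighbour in the ribonuclease family, averaged 60.7% ± 6.80 (SD, n = 2) in old and 78.8% ± 12.4 (SD, n = 3) in young sperm. Clu, which encodes the extracellular chaperone clusterin, averaged 71.3% ± 8.12 in old and 80.8% ± 6.91 in young sperm. Spag11a, a defensin-like gene, averaged 55.9% ± 1.78 in old and 64.2% ± 20.6 in young sperm. Of 19 paralogs known mainly from other tissues, 15 were tested and 0 were called, with 4 higher and 11 lower in old sperm and a median difference of -2.21 points. Among the 11, Ang lies within the span of Rnase4, so most reads of Rnase4 count for both (836 and 908 reads in old replicate 1). The largest differences of the 15 were at Cst3, which encodes cystatin C (71.9% ± 6.42 in old and 81.4% ± 8.38 in young sperm), at Gpx2, an intestinal glutathione peroxidase (86.7% ± 2.66 in old and 92.1% ± 7.13 in young sperm), and at Ang, which encodes angiogenin (63.8% ± 1.95 in old and 68.7% ± 11.2 in young sperm). Young replicate 3 was the lowest library in 6 of the 15 paralogs, Ang and Rnase4 both among them. Of the 4 paralogs with too few reads for the test, Gpx3 had the largest difference, with 93.8% and 91.0% in old sperm, against 90.2%, 54.5% and 91.2% in young sperm, where the value of 54.5% rests on 11 reads.

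The mean of the 7 genes tested was 89.3% and 89.6% in old sperm, against 84.2%, 92.1% and 81.0% in young sperm. The 3 genes outside the lists that came closest to it over the 5 libraries were Smbd1, Gm36003 and Gm51953, at root mean square differences of 0.426, 0.986 and 1.04 points. Smbd1 had 89.8% and 89.1% in old sperm, against 84.5%, 91.8% and 81.5% in young sperm, values that follow from how it was chosen.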

How the data were processed

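Each deposited file gives, per its header, a count of reads (coverage) for every CpG cytosine, with the percent that were C (methylated) or T. The authors used methylKit 1.4.0, Bismark 0.16.3 and Trim Galore 0.4.3 with the build mm10 (GRCm38), per the submitters' processing notes. How duplicate reads were handled is not given in the sources used here. Since the lowest coverage in each file was 5, cytosines with fewer reads were not analysed here. An unmethylated C and a variant read as T look alike after bisulfite, and reads of similar copies can add to one place. Percent times coverage gave a whole count for 100% of cytosines, within 0.005 points of the listed percent. Strands were merged and reads summed per gene with 2000 bp on either side, per 1000-bp tile, and within 1000 bp of gene starts (RefSeq of the same build).

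Features with at least 3 CpGs and 20 reads in every library were tested, old against young, with a quasi-binomial logistic model whose dispersion was moderated with squeezeVar of limma 3.58.1 (R 4.3.3) and not let under 1, with Benjamini-Hochberg adjustment over all features. The test was checked on simulated data. Calls were made at 10 points or more and an adjusted p under 0.05. Sums and figures were made with pandas 2.3.3, numpy 2.4.6, matplotlib 3.10.9 and scipy 1.17.1 in Python 3.11.15. The members, lists and tests were chosen with earlier results of these data known. Named were all members, for each member with a tested tile the least methylated tested tile and that of smallest p, the 3 largest differences of each list and the 3 genes most like the members' mean. Alternatives covered the dispersion model, limma on log2((methylated + 1)/(unmethylated + 1)), coverage limits, flanks, filters, CpG weights, the replicate number and each library left out. Leaving out both young replicates 2 and 3 was added after seeing the data.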

Additional observations from a re-analysis of the deposited data

How the results depend on the processing

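No alternative called a gene, tile, start window or member except the binomial model without extra dispersion, which called 1961 genes, 807 of them higher in old sperm. It called no member. Its adjusted p was 0.00366 for Gpx5 and 0.0138 for Lcn5, whose differences of 8.20 and 6.32 points were under 10. Under this model 38.2% of all genes had an unadjusted p under 0.05. Among members tested in both settings, these differences of old minus young changed sign. At CpGs covered in all 5 libraries Rnase9 was at -0.149 and Adam7 at 0.973 points. With 10 or more reads per CpG, where 6 members had a value, Rnase9 was at -1.78, Adam7 at 1.87 and Gpx5 at -3.12. With flanks of 1000 bp Rnase10 was at -1.79. Differences with too few reads for the test also turned: without flanks Rnase10 was at -33.2, with flanks of 1000 bp Lcn9 was at 6.01, and with the replicate number as a block Lcn8 was at -3.13. Adam7 was at 0.935 without old replicate 2, at 0.254 without young replicate 1 and at 2.73 without young replicate 2. With 1 library left out the range was 4.71 to 13.8 points for Gpx5, 1.39 to 13.6 for Lcn5, 0.853 to 5.84 for Cst11, 2.29 to 5.01 for Rnase9, 1.70 to 6.00 for Rnase10, 0.349 to 1.05 for Crisp1, -3.70 to 2.73 for Adam7, -3.13 to 8.41 for Lcn8, -8.18 to 6.52 for Lcn9 and -8.74 to 5.22 for Lcn12, so that the last 4 lay on both sides of 0. The median of the 7 members stayed above 0, between 1.39 and 5.84. Over those of the 7 that had a value, tested or not, it was 1.07 at shared CpGs (7 members), 1.41 with 10 or more reads (6 members) and 1.64 without flanks (6 members). It was 4.24 without young replicates 2 and 3. The labels do not say that replicate numbers pair libraries. Deviations within the age group, gene by gene, correlated at -0.0285 and -0.0218 between same-numbered libraries. With 2 old libraries their deviations mirror each other, so the other old replicate gave 0.0285 and 0.0218. With the replicate number as a block, 0 genes were called and the members' median was 1.39. Only young replicate 3 has that number, so the block's member differences were the same as without that library. The cause of these changes was not tested. Depth limits Lcn8, Lcn9 and Lcn12 most, and 2 old libraries limit every comparison.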
